A study of Mus musculus with 10 samples.

Results

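The genes described here are 10 members of the heat shock response: the regulator Hsf1, the HSP70 chaperones Hspa1a, Hspa1b and Hspa8, the HSP70 partners Dnajb1 and Hsph1, the HSP90 chaperones Hsp90aa1 and Hsp90ab1, and the mitochondrial chaperonin genes Hspd1 and Hspe1. They were taken by name from the deposited table. All 10 were found among its 12637 genes and all 10 passed the filter on low values that left 12203 genes to test. Their levels were followed in naive splenic CD8+ T cells of C57Bl/6 mice, females 6 weeks of age, of 2 genotypes, wild type (WT) and Ikaros-Zn4-/-. Ikaros, encoded by Ikzf1, binds DNA through zinc fingers and regulates transcription in lymphocytes, and the mutant mice are homozygous for an Ikaros that lacks zinc finger 4, as a germline change. Cells sorted as CD8+ with high CD62L and low or absent CD44 were used directly (0 min) or held for 30 or 120 min on plates carrying antibodies against CD3 and CD28. These antibodies engage the T cell receptor and its costimulatory receptor, and the series asks how stimulation acts in the presence of either form of Ikaros. Each genotype gave 5 of the 10 libraries: a pair at 0 min, a pair at 30 min and a single one at 120 min.

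Heat shock proteins are chaperones that help other proteins fold and keep them from aggregating. In unstressed cells HSF1 is held inactive by chaperones. When unfolded proteins accumulate HSF1 forms trimers, binds heat shock elements, which are inverted repeats of the unit nGAAn, and switches on genes such as Hspa1a, Hspa1b, Dnajb1 and Hsph1. Hspa8 and Hsp90ab1 are the constitutive relatives of the inducible HSP70 and HSP90 genes. In T cells HSP90 keeps several signalling kinases in a form that can be activated.

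Sequencing depth, recovered from the spacing of the deposited values, was 4.50 to 13.3 M reads per library. Ikzf1 itself lay between 134 and 171 RPKM (reads per kilobase of transcript, scaled to library size) in WT libraries and between 206 and 263 RPKM in mutant libraries (log2 change 0.59, adjusted p = 0.00165, limma). All 8 CD8 T cell markers were in the table, with a summed level of 2766 to 4013 RPKM at 0 and 30 min and of 1220 and 1341 RPKM at 120 min, against 2 of 8 B cell markers (4.47 to 15.1 RPKM), 3 of 10 myeloid markers (8.14 to 34.2 RPKM) and none of 8 erythroid and platelet markers. The labels do not say whether replicates came from separate mice, so a p-value here covers just the spread among the libraries, which may be technical. As in any bulk sample, fewer cells of a type and less RNA per cell cannot be told apart.

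The sequences before the start sites are shown first, because heat shock elements are the sites through which HSF1 acts on these genes. Windows of 250 bases upstream of an annotated start (RefSeq, GRCm38.p6) were on hand for 6 of the 10 genes, and Hspa8, Hsp90aa1, Hsp90ab1 and Hsf1 had no entry. They were searched for a pair of inverted units, GAANNTTC or TTCNNGAA, which reads the same set of matches on both strands. Such a pair occurs in 12.8% of 32851 windows of that length. The 120 bases before Hspa1b (chr17:34959239-34959358, minus strand) are printed because they are nearly the same before Hspa1a. The other printed stretches are the 30 bases around the matches of Hsph1 (chr5:149636346-149636375, minus strand) and Hspe1 (chr1:55088053-55088082, plus strand). Capitals mark the units.
Hspa1b: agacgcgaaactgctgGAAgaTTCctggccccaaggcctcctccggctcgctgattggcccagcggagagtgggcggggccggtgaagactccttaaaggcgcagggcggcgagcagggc
Hsph1: gaatctTTCtcGAAggctcgagaagaagga
Hspe1: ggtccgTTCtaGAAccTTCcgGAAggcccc

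Hspa1b held 1 pair, beginning 104 bases before the start, and Hspa1a held the same pair at the same place. Over the whole 250 bases the Hspa1a and Hspa1b windows were identical at 247 positions and differed at 3. The Hsph1 pair began 33 bases before one annotated start and 54 bases before the other. Hspe1 stood out by 4 units in a row beginning 89 bases before the start, and a run of at least 3 units (GAANNTTCNNGAA or TTCNNGAANNTTC) occurs in only 0.466% of all windows. Hspd1 lies head to head with Hspe1, and a second annotated start of Hspd1 has the same run, read on the other strand, in its window. No pair was found in the Dnajb1 windows, of which that at chr8:83608298-83608547 lies within the gene as annotated in GENCODE M21. These matches describe letters and do not show that a factor binds. The search took exact units within 250 bases, so a window without a match does not show that a gene lacks such an element.

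Hspa1a and Hspa1b, which encode the stress-inducible HSP70 and sit beside each other at chr17:34969190-34972156 and chr17:34956436-34959238 on the minus strand (GRCm38, GENCODE M21, as for all genes below), were the most variable of the 10 genes. Hspa1b was at 388 and 72.0 RPKM in the WT libraries at 0 min, at 210 and 42.5 RPKM after 30 min and at 3.57 RPKM after 120 min. Mutant cells held 12.5 and 25.0 RPKM at 0 min, 16.5 and 27.0 RPKM after 30 min and 4.11 RPKM after 120 min. Every WT library of 0 or 30 min thus lay above every mutant library, while at 120 min the genotypes were close together at the bottom of the range. Hspa1a followed the same course at a lower level. Its WT values were 146 and 19.2 RPKM at 0 min, 85.4 and 14.0 RPKM after 30 min and 1.73 RPKM after 120 min. Its mutant values were 3.67 and 5.39 RPKM, then 4.08 and 7.36 RPKM, and 0.916 RPKM after 120 min, a library in which 25 reads were recovered for the gene. The WT and mutant groups again did not overlap at 0 and 30 min.

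The split of reads between these neighbours is uncertain. Of the 50-base words in the Hspa1a transcripts, 60.3% also occur in other genes, nearly all of them in Hspa1b, and 62.3% of those of Hspa1b occur in Hspa1a. The sum of both genes depends little on that split. It was 534 and 91.2 RPKM in WT cells at 0 min, 295 and 56.4 RPKM after 30 min and 5.30 RPKM after 120 min. In mutant cells the sum was 16.1 and 30.4 RPKM, then 20.6 and 34.4 RPKM, and 5.02 RPKM after 120 min. All WT sums of 0 and 30 min again lay above all mutant sums, and those of 120 min were the lowest.

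**Figure D1:**
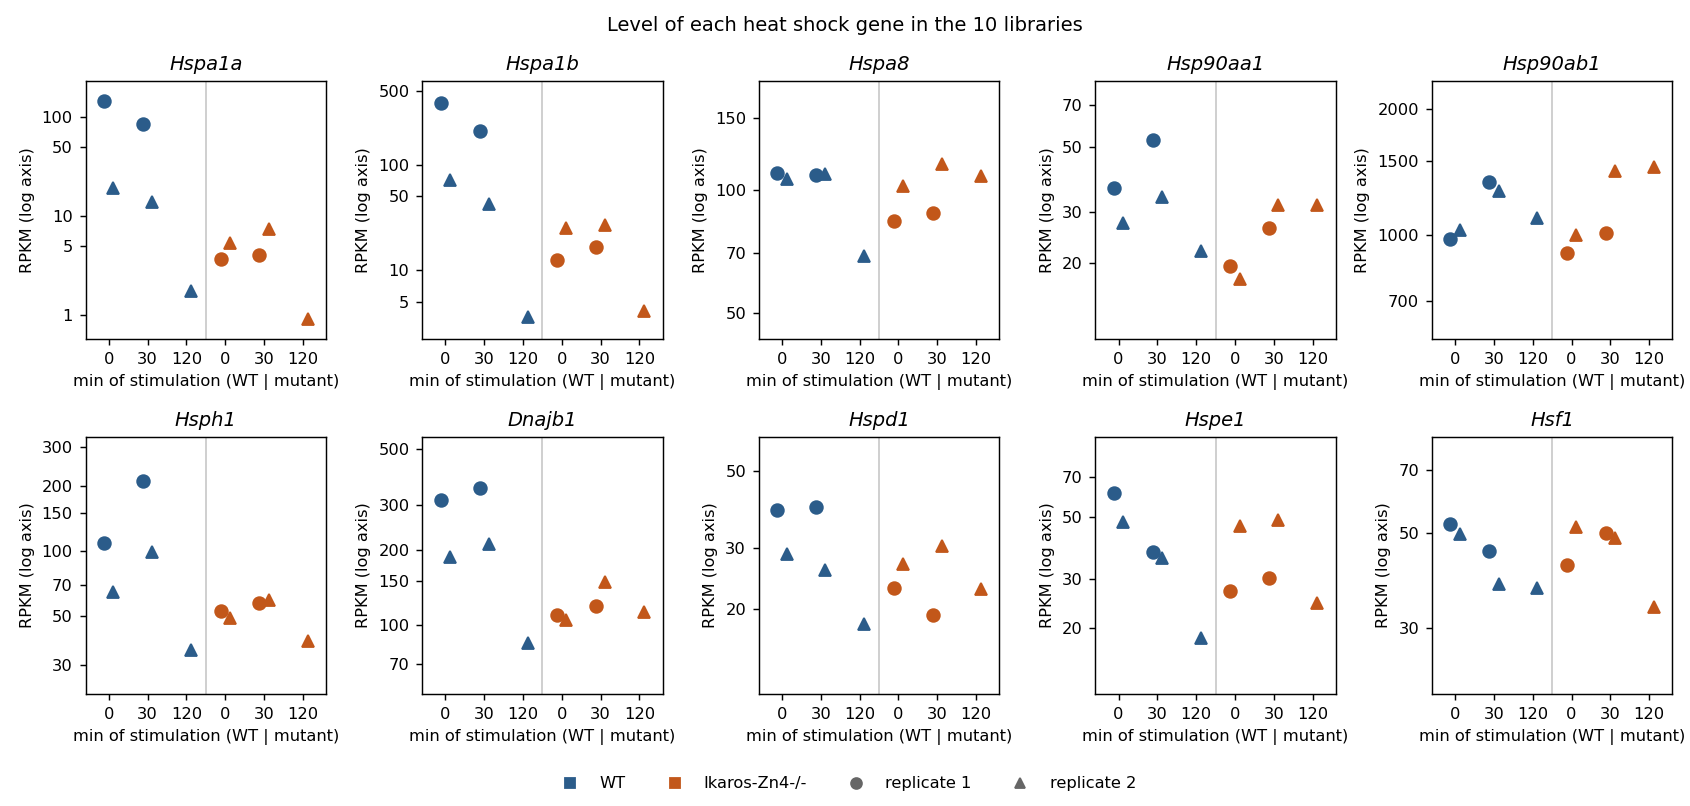
Level of each of the 10 genes in RPKM (log axis, a separate range in each panel) in every library, by minutes of stimulation, with WT at the left (blue) and Ikaros-Zn4-/- at the right (orange) of each panel and symbols for the replicate number. Hspa1a, Hspa1b, Hsph1 and Dnajb1 have all 4 WT points of 0 and 30 min above all 4 mutant points, and the WT replicate numbered 1 is the higher of each WT pair for these genes.

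The partners of HSP70 showed the same ordering in a milder form. Dnajb1 (chr8:83608193-83612653, plus strand), a J domain protein that delivers substrates to HSP70 and stimulates its ATPase, was at 316 and 187 RPKM in WT cells at 0 min, 351 and 211 RPKM after 30 min and 85.2 RPKM after 120 min. The mutant libraries had 110 and 105 RPKM, 119 and 149 RPKM, and 113 RPKM. WT cells thus went from the highest Dnajb1 levels of the series to the lowest, while the mutant libraries stayed within a narrow band.

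Hsph1 (chr5:149614287-149636376, minus strand), an HSP110 protein that acts as nucleotide exchange factor of HSP70, was at 109 and 64.9 RPKM in WT cells at 0 min, 210 and 99.5 RPKM after 30 min and 35.0 RPKM after 120 min. In mutant cells it was at 53.3 and 49.2 RPKM, 57.7 and 59.4 RPKM, and 38.7 RPKM. The WT libraries of 0 and 30 min were again all above the mutant ones, and the 120 min libraries were the lowest of each genotype. Hsph1 and Dnajb1 share at most 0.380% of their 50-base words with other genes, so their values depend little on how reads of near-identical copies were assigned.

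Hspa8 (chr9:40800984-40810087, plus strand), the constitutive HSP70, moved little. It was at 110 and 107 RPKM in WT cells at 0 min, 109 and 109 RPKM after 30 min and 68.9 RPKM after 120 min. In mutant cells it was at 84.1 and 102 RPKM, 87.9 and 116 RPKM, and 108 RPKM. The WT library of 120 min was the lowest, and the other 9 overlapped between times and genotypes. Of its 50-base words 38.6% occur in other genes, most of them in the pseudogene Gm15459, and its exons contain small nucleolar RNA genes, so its level is uncertain.

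Hsp90ab1 (chr17:45567775-45573271, minus strand), the constitutive HSP90, was the most abundant of the 10 genes in every library. Its WT values were 982 and 1029 RPKM at 0 min, 1337 and 1273 RPKM after 30 min and 1100 RPKM after 120 min. Its mutant values were 908 and 1003 RPKM, 1013 and 1421 RPKM, and 1453 RPKM. Within each genotype both 30 min libraries exceeded both 0 min libraries, but the genotypes overlapped. Only 3.44% of its words are shared with other genes.

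Hsp90aa1 (chr12:110690605-110702728, minus strand), the inducible HSP90, was present at far lower levels. It was at 36.3 and 27.6 RPKM in WT cells at 0 min, 52.7 and 33.7 RPKM after 30 min and 22.0 RPKM after 120 min. Mutant cells had 19.6 and 17.6 RPKM, 26.3 and 31.7 RPKM, and 31.7 RPKM. The WT libraries were above the mutant ones at 0 min and at 30 min. At 120 min the WT library was below both of its 0 min libraries and the mutant library above both of its own. Of the Hsp90aa1 words 47.5% are shared with other genes, mostly the pseudogene Gm12346, so reads of the pair may be mixed.

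Hspd1 (chr1:55077835-55088243, minus strand) and Hspe1 (chr1:55088132-55091307, plus strand) encode the HSP60 and HSP10 subunits of the mitochondrial chaperonin and are transcribed away from each other from a shared start region. Hspe1 was at 61.0 and 47.9 RPKM in WT cells at 0 min, 37.5 and 35.7 RPKM after 30 min and 18.4 RPKM after 120 min. In mutant cells it was at 27.0 and 46.4 RPKM, 30.1 and 48.7 RPKM, and 24.5 RPKM. The 120 min libraries were the lowest of all 10. Hspd1 stayed between 18.1 RPKM (WT, 120 min) and 39.3 RPKM (WT, 30 min), with both WT libraries above both mutant ones at 0 min (38.6 and 28.9 RPKM against 23.1 and 26.9 RPKM) and overlapping genotypes at 30 min. Its words are shared to 39.7% with other genes, mostly the pseudogene Hspd1-ps3. The annotated exons of these genes overlap by 112 bases on opposite strands, and the library kit did not mark strand.

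Hsf1 (chr15:76477422-76501913, plus strand), the transcription factor of the response, was at 52.4 and 49.8 RPKM in WT cells at 0 min, 45.4 and 38.1 RPKM after 30 min and 37.2 RPKM after 120 min. In mutant cells it was at 42.0 and 51.5 RPKM, 49.999 and 48.5 RPKM, and 33.6 RPKM. The 120 min libraries were the lowest. The genotypes overlapped at 0 min, while at 30 min both mutant libraries lay above both WT libraries. The activity of HSF1, which is set by the state of the protein, was not measured.

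A pair of WT libraries stood apart from the rest of the group. Except for the genotype difference in the 30 min response, each test of the 10 genes below is followed by values without them. This setting was chosen after the data were seen. That setting leaves 1 WT library at each time, whose spread was taken from the mutant pairs in the fits with 1 mean per group. The WT libraries numbered 1 exceeded those numbered 2 by 7.57 times at 0 min and 6.12 times at 30 min in Hspa1a, and by 5.39 and 4.94 times in Hspa1b. Ranked among the 12203 genes by this difference, Hspa1a was number 15 from the top at 0 min and number 19 at 30 min. The corresponding ratios were 1.68 and 2.12 for Hsph1 and 1.69 and 1.66 for Dnajb1, but 1.03 and 0.999 for Hspa8 and 0.954 and 1.05 for Hsp90ab1. In the mutant pairs the ratio of number 1 to number 2 was 0.680 and 0.554 for Hspa1a and 0.498 and 0.611 for Hspa1b. The excess of the library numbered 1 was thus present in both WT pairs and reversed in both mutant pairs.

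**Figure D2:**
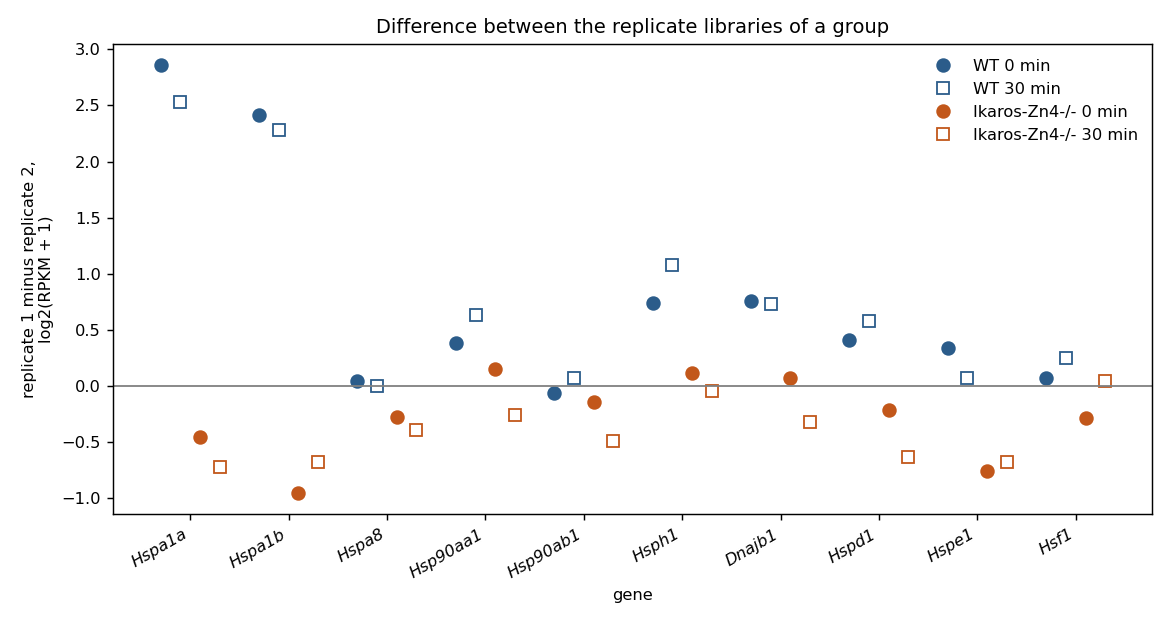
Difference between the replicate libraries numbered 1 and 2 of each group, in log2(RPKM + 1), for the 10 genes; filled circles are 0 min, open squares 30 min, blue WT and orange Ikaros-Zn4-/-. The WT points of Hspa1a and Hspa1b lie between 2.28 and 2.86, and the mutant points of these genes lie below 0.

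Some genes that mark stimulation were also high in the same library at 0 min. Fos, an immediate early transcription factor gene, was at 1259 and 498 RPKM in the WT libraries of 0 min, against 270 and 175 RPKM in the mutant ones. Jun was at 492 and 190 RPKM against 98.4 and 116 RPKM, and Nr4a1 at 221 and 28.0 RPKM against 38.9 and 18.4 RPKM. The higher WT value belonged to the library numbered 1 in each case. At 30 min the library numbered 1 was again the higher WT one for Jun (512 and 313 RPKM) and Nr4a1 (605 and 281 RPKM) but not for Fos (700 and 764 RPKM). All 8 stimulation markers were in the table. Egr1 and Nfkbia were likewise higher in both WT than in both mutant libraries at 0 min, while Cd69 and Myc overlapped. Tnf was lower in WT, at 6.48 and 6.25 RPKM against 9.29 and 10.3 RPKM. The summed level of the 8 at 0 min was 2499 and 1103 RPKM in the WT libraries and 798 and 637 RPKM in the mutant ones, so that the genotypes did not overlap. Fos was the largest part of each of these sums. At 30 min the summed level was 2911 and 2644 RPKM in WT and 2497 and 3419 RPKM in mutant libraries, which overlapped. None of the 8 was called between genotypes at 0 min or at 30 min. The part of these differences in the heat shock gene levels was not tested.

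After 30 min of stimulation none of the 10 genes passed the test, against 19.0% of all genes (6.51% higher and 12.5% lower). The test was limma's moderated test on log2(RPKM + 1), averaged over the genotypes, with Benjamini-Hochberg adjustment over the 12203 genes and a threshold of 0.05. Hsp90aa1 was the 1 member with an unadjusted p under 0.05. Its log2 change was 0.51 (SE 0.17, adjusted p = 0.0749), and that of Hsp90ab1 was 0.35 (SE 0.15, adjusted p = 0.143). Both were higher at 30 min than at 0 min in the mean of each genotype, by 1.35 and 1.56 times for Hsp90aa1 and 1.30 and 1.27 times for Hsp90ab1, WT first. The voom method, which models the reads recovered from the RPKM values, called 3258 of the 12203 genes. Of the 10 genes it called 2, Hsp90aa1 (adjusted p = 0.0244) and Hsp90ab1 (adjusted p = 0.0244). With the libraries scaled by the median ratio, which removes a shift shared by all genes, limma called 1 gene, Hsp90ab1. Without WT 30 min replicate 2, Hsp90aa1 also passed in limma (log2 change 0.66, adjusted p = 0.0461). None passed with both WT libraries numbered 1 left out, and the changes were then 0.45 for Hsp90aa1 (adjusted p = 0.169) and 0.32 for Hsp90ab1 (adjusted p = 0.497). The median log2 change of the 10 genes was 0.01 and that of all genes was -0.13, a shift of the whole distribution that lifts each change by 0.13 when it is read relative to the typical gene.

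By 120 min the inducible HSP70 genes had fallen. In the mean of the genotypes Hspa1b changed by -3.54 (SE 0.82, adjusted p = 0.00808) and Hspa1a by -2.91 (SE 0.91, adjusted p = 0.0274) on the log2(RPKM + 1) scale. Hspe1 fell by 1.01 (SE 0.26, adjusted p = 0.0135) and Hsf1 fell by 0.45 (SE 0.13, adjusted p = 0.018). These 4 of 10 genes were lower and none was higher, against 40.4% lower and 19.3% higher among all genes, so the share was near the background. The median change of all genes was -0.32, and relative to it the changes were -3.22 for Hspa1b, -2.60 for Hspa1a, -0.69 for Hspe1 and -0.14 for Hsf1. When the libraries were scaled by the median ratio, which removes this shift, Hspa1b (-3.18, adjusted p = 0.0147) and Hspa1a (-2.63, adjusted p = 0.0453) were still called, while Hspe1 (adjusted p = 0.0711) and Hsf1 (-0.05, adjusted p = 0.773) were not. The CD8 T cell markers moved in the same direction: 7 of 8 were called lower at 120 min than at 0 min and 1, Ccr7, higher, with a median log2 change of -2.36. Their summed level was 1220 and 1341 RPKM in the 120 min libraries, below all 8 others (2766 to 4013 RPKM). The part of this difference in the heat shock changes was not tested. Under scaling by the median ratio Hsp90ab1 was called higher (0.78, adjusted p = 0.00355), compared with 0.37 (SE 0.18, adjusted p = 0.126) on the deposited scale.

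The ratio of the levels before and after was larger in WT cells, which started higher, although the test of a difference between the genotypes' responses, given further on, was not passed. Taken as ratios of mean RPKM, the level at 0 min was 64.5 times that at 120 min for Hspa1b in WT cells and 4.56 times in mutant cells, and for Hspa1a 47.5 and 4.94 times. With the WT library numbered 2 alone at 0 min, the WT ratios were 20.2 for Hspa1b and 11.1 for Hspa1a. For Dnajb1 the ratios were 2.95 in WT cells and 0.948 in mutant cells. Each 120 min group holds 1 library, whose spread was assumed to be like that of the other groups, and calls also depended on single libraries. A fit without a 120 min library gives the change of the other genotype alone, not the mean of the genotypes. Without the WT 120 min library, that is in mutant cells alone, none of the 4 genes passed. Hspa1b then changed by -1.87 (adjusted p = 0.221), Hspa1a by -1.51 (adjusted p = 0.369), Hspe1 by -0.51 (adjusted p = 0.295) and Hsf1 by -0.46 (adjusted p = 0.0728). Dnajb1 changed by -0.71 (SE 0.27, adjusted p = 0.057) in the mean of the genotypes and by 0.076 in mutant cells alone. The Hspa1a call was also lost without the mutant 0 min replicate 1 (adjusted p = 0.0518) or 2 (adjusted p = 0.0668), and the Hsf1 call without the mutant 120 min library (adjusted p = 0.083).

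Hsph1 changed by -0.82 (SE 0.32, adjusted p = 0.058) between 0 and 120 min and Hspd1 by -0.48 (SE 0.24, adjusted p = 0.125), neither of which passed. Hsph1 passed with -0.82 (adjusted p = 0.0195) without WT 30 min replicate 1, -0.82 (adjusted p = 0.0197) without WT 30 min replicate 2 and -1.004 (adjusted p = 0.0367) without WT 0 min replicate 2. Dnajb1 passed without the same 3 libraries. It also passed without the mutant 120 min library, that is in WT cells alone (-1.50, adjusted p = 0.0187). With both WT libraries numbered 1 left out, the changes were -2.94 for Hspa1b (adjusted p = 0.00673), -2.20 for Hspa1a (adjusted p = 0.00724) and -0.63 for Hsph1 (adjusted p = 0.015), all past the threshold, while Hspe1 (-0.93, adjusted p = 0.0832) and Hsf1 (-0.43, adjusted p = 0.0654) did not pass. In 5 of the 10 genes, Hspa1a, Hspa1b, Hsph1, Hspe1 and Hsf1, both 120 min libraries lay below all 8 others, against 32.7% of all genes.

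**Figure D3:**
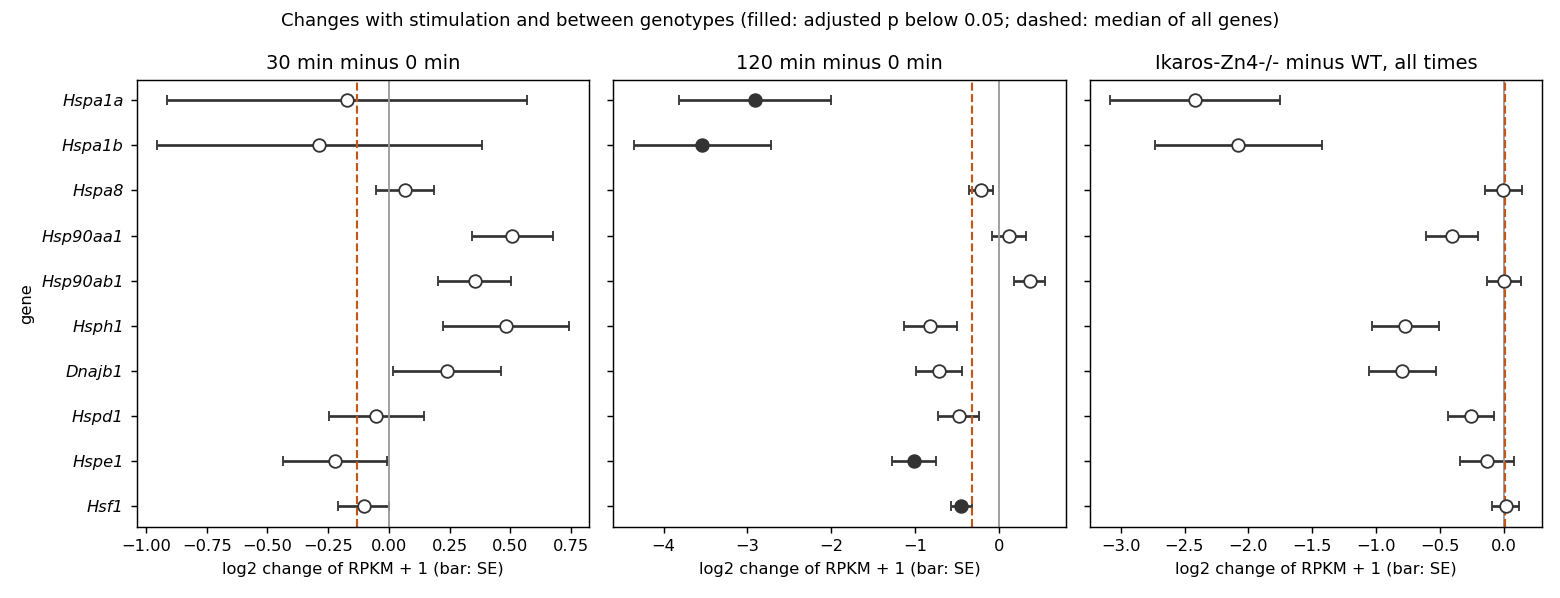
Log2 change of RPKM + 1 with its standard error for the 10 genes, at 30 min against 0 min (left), 120 min against 0 min (middle) and in Ikaros-Zn4-/- against WT cells over all times (right), each panel with its own horizontal range. Filled points passed an adjusted p of 0.05 in limma, and the dashed line is the median of all genes; Hspa1a, Hspa1b, Hspe1 and Hsf1 at 120 min are the filled ones.

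Between 30 and 120 min 5 of the 10 genes fell, against 31.3% of all genes. Hspa1b fell by 3.25 (SE 0.82, adjusted p = 0.0152) and Hspa1a fell by 2.74 (SE 0.91, adjusted p = 0.0418). Hsph1 fell by 1.30 (SE 0.32, adjusted p = 0.0132), Dnajb1 fell by 0.95 (SE 0.27, adjusted p = 0.0251) and Hspe1 fell by 0.79 (SE 0.26, adjusted p = 0.0429). Hsf1 changed by -0.35 (SE 0.13, adjusted p = 0.0573). The median of all genes was -0.22 here, and with scaling by the median ratio only Hspa1b (adjusted p = 0.0213) and Hsph1 (adjusted p = 0.0414) were called.

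No member passed without the WT 120 min library, a fit that gives the change of mutant cells alone. Hspa1b then changed by -2.12 (adjusted p = 0.192) and Hsph1 by -0.59 (adjusted p = 0.339). Leaving both WT libraries numbered 1 out gave 4 called genes, Hspa1b (-2.68, adjusted p = 0.0135), Hspa1a (-2.11, adjusted p = 0.0133), Hsph1 (-1.03, adjusted p = 0.00982) and Dnajb1 (-0.77, adjusted p = 0.0296), and Hspe1 was not (-0.77, adjusted p = 0.147). The Hspa1b and Hsph1 calls held when any other single library was left out. Dnajb1 was also lost without WT 30 min replicate 1 (-0.77, adjusted p = 0.0563) and without mutant 30 min replicate 2 (-0.87, adjusted p = 0.0679). Hspa1a passed in 3 of the 10 fits that each left out 1 library, those without WT 0 min replicate 1, WT 0 min replicate 2 or WT 30 min replicate 2, and otherwise had an adjusted p of 0.0641 to 0.317. Hspe1 passed in 3, those without mutant 0 min replicate 1, mutant 0 min replicate 2 or mutant 30 min replicate 1, and otherwise had an adjusted p of 0.0593 to 0.23. Hsf1 passed without mutant 0 min replicate 1 (adjusted p = 0.0488) or 2 (adjusted p = 0.0483).

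The comparison of the genotypes rested on the same 4 inducible genes. Hspa1a, Hspa1b, Hsph1 and Dnajb1 had all 4 WT libraries of 0 and 30 min above all 4 mutant libraries of these times, 4 of 10 genes against 3.85% of all genes. With the WT libraries numbered 2 alone, both lay above all 4 mutant libraries in the same 4 genes and in 8.97% of all genes. As ratios of group means, WT exceeded mutant cells by 18.2 times in Hspa1a, 12.3 times in Hspa1b, 2.34 times in Dnajb1 and 1.70 times in Hsph1 at 0 min. At 30 min the ratios were 8.68, 5.79, 2.09 and 2.65 in the same order. With the WT libraries numbered 2 alone they were 4.25, 3.84, 1.74 and 1.27 at 0 min and 2.44, 1.95, 1.57 and 1.70 at 30 min. At 120 min, with 1 library against 1 and no test, they were 1.89, 0.868, 0.752 and 0.904.

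None of the 10 genes passed the test of genotype over all times (limma with genotype and time as terms), against 9.42% of all genes. Hspa1a changed by -2.42 (SE 0.67, adjusted p = 0.053), Hspa1b by -2.08 (SE 0.65, adjusted p = 0.084), Dnajb1 by -0.79 (SE 0.26, adjusted p = 0.1) and Hsph1 by -0.77 (SE 0.26, adjusted p = 0.112). These 4 were also the genes with an unadjusted p under 0.05. The voom method called 1517 of the 12203 genes. All 4 were among them, with adjusted p of 0.00392 for Hspa1a, 0.00384 for Hspa1b, 0.0177 for Dnajb1 and 0.0227 for Hsph1. Limma called 3 of them without the WT 120 min library, namely Hspa1a (-2.89, adjusted p = 0.0474), Hspa1b (-2.64, adjusted p = 0.0486) and Dnajb1 (-1.10, adjusted p = 0.0176). The fit without the mutant 120 min library made the same comparison (adjusted p of 0.0475, 0.0486 and 0.0178). With 1 library left at 120 min, that time holds no information on genotype. Both fits thus compare the genotypes at 0 and 30 min alone and count as 1 result. Without WT 30 min replicate 2 Hspa1a passed (-2.80, adjusted p = 0.0441). With both WT libraries numbered 1 left out the changes were smaller in size, at -1.26 for Hspa1a (adjusted p = 0.0562), -1.02 for Hspa1b (adjusted p = 0.241), -0.42 for Dnajb1 (adjusted p = 0.389) and -0.36 for Hsph1 (adjusted p = 0.304), still lower in mutant cells but not past the threshold.

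At 0 min alone, 2 libraries against 2, limma called none of the 10 genes against 2.47% of all genes. Dnajb1 changed by -1.17 (SE 0.31, adjusted p = 0.142), Hspa1b by -3.17 (SE 0.94, adjusted p = 0.18) and Hspa1a by -3.32 (SE 1.05, adjusted p = 0.21). These and Hsp90aa1, 4 genes in all, had an unadjusted p under 0.05. Of the 10 genes voom called 2, Hspa1b (adjusted p = 0.0267) and Dnajb1 (adjusted p = 0.0151), against 635 of the 12203 genes. With both WT libraries numbered 1 left out the comparison was 1 library against 2, too few for its calls to be compared. The changes were then smaller in size, at -0.79 for Dnajb1, -1.96 for Hspa1b and -1.89 for Hspa1a. At 30 min limma again called none, against 2.61% of all genes. Hsph1 changed by -1.29 (SE 0.36, adjusted p = 0.138) and Dnajb1 by -1.02 (SE 0.31, adjusted p = 0.169), the 2 genes with an unadjusted p under 0.05. Voom called both (adjusted p = 0.0167 and 0.0289), against 612 of the 12203 genes. With both WT libraries numbered 1 left out, again 1 library against 2, the changes were -0.75 for Hsph1 and -0.66 for Dnajb1.

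Markers of other cells were compared over all times in the same way. Of 8 natural killer cell markers 4 were in the table, and 2 of them were called, both higher in mutant cells. Their summed level was 42.6 to 112 RPKM in WT libraries of 0 and 30 min and 61.1 to 148 RPKM in mutant ones, and 16.2 and 22.9 RPKM after 120 min. Eomes, a transcription factor of natural killer and memory CD8 T cells, was higher in mutant cells (log2 change 1.64, adjusted p = 3.72e-05), as was Gzma, which encodes granzyme A (2.26, adjusted p = 0.00104). The other members were not called, with changes of 0.20 for Klrd1 (adjusted p = 0.651) and 0.0087 for Prf1 (adjusted p = 0.982). Ncr1, Klrb1c, Klra8 and Tyrobp were not among the genes of the table. Of the B cell markers in the table, Cd79b was lower in mutant cells (-0.83, adjusted p = 0.00239) and Cd79a was not called (0.19, adjusted p = 0.491). Their summed level at 0 and 30 min was 6.98 to 15.1 RPKM in WT and 4.47 to 10.0056 RPKM in mutant libraries, and 8.72 and 8.01 RPKM at 120 min. Of the 3 myeloid markers 1 was called, Itgam, which was higher in mutant cells (0.90, adjusted p = 0.00272). Their summed level at 0 and 30 min was 17.2 to 24.8 RPKM in WT and 19.7 to 34.2 RPKM in mutant libraries, and 8.14 and 8.59 RPKM at 120 min. Among the CD8 T cell markers Thy1 alone was called, higher in mutant cells (0.43, adjusted p = 0.0318), and among the stimulation markers Tnf alone, also higher (0.48, adjusted p = 0.0396). The part of these cells or genes in the heat shock differences was not tested.

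Whether the genotypes responded differently was tested as an interaction, and no gene passed at 30 min (0% of all genes) or at 120 min (0%). At 30 min none of the 10 genes, and 656 of the 12203, had an unadjusted p under 0.05, and voom called none. At 120 min 3 members, and 661 of all genes, had an unadjusted p under 0.05, and voom again called none. On the log2 scale the mutant change minus the WT change was 1.25 for Hsp90aa1 (SE 0.41, adjusted p = 0.892), 0.87 for Hspa8 (SE 0.29, adjusted p = 0.892) and 1.58 for Dnajb1 (SE 0.55, adjusted p = 0.892) in these 3. In each of them the WT library of 120 min lay below both WT libraries of 0 min and the mutant library above both of its own, in the levels given above. The differences were 1.06, 0.84 and 1.199 in the same order with both WT libraries numbered 1 left out, and none was called.

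Other genes of the chaperone network were described from lists of 113 genes, of which 95 were tested. At 30 min 17 of the 95 were higher and 9 lower, and at 120 min 26 were higher and 28 lower, against 6.51% and 12.5% of all genes at 30 min and 19.3% and 40.4% at 120 min. With both WT libraries numbered 1 left out, 51 of all genes were called at 30 min, and on these lists only 2 of the other stress genes. None of 3 small heat shock proteins was called at either time. Of the HSP70 relatives and their exchange factors 3 of 17 were higher and none lower at 30 min, with a median log2 change of 0.15. Hspa2, an HSP70 best known from the testis, rose by 1.83 (SE 0.15, adjusted p = 0.00134), and Hspa5, the HSP70 of the endoplasmic reticulum, rose by 1.36 (SE 0.11, adjusted p = 0.00131). Bag3, an exchange factor and itself a target of HSF1, rose by 1.33 (SE 0.33, adjusted p = 0.0359). At 120 min 9 of the 17 were higher and 1 lower, with a median of 0.58, including Hspa2 (1.82), Hspa5 (1.79) and, in the other direction, Hspbp1 (-1.54), a negative regulator of HSP70. Most called genes of this list thus rose while Hspa1a and Hspa1b fell.

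The cochaperones and relatives of HSP90 went the other way. At 120 min 13 of 17 were lower and 2 higher, with a median of -1.09 against -0.32 for all genes, and 12 lower and 3 higher with scaling by the median ratio. Pih1d1, a subunit of the R2TP complex, fell by 1.74 (SE 0.11, adjusted p = 4.51e-05), and Chordc1, a cochaperone of HSP90, fell by 1.53 (SE 0.32, adjusted p = 0.0049). Unc45a, a chaperone of myosin, rose by 1.79 (SE 0.21, adjusted p = 0.000341), and was also the only listed gene called between genotypes, lower by a log2 change of -0.59 (adjusted p = 0.036) in mutant cells. At 30 min 1 of the 17 was higher and 3 were lower. The higher one was Unc45a (0.81, adjusted p = 0.0206), and Ahsa2 (-0.62, adjusted p = 0.0186) and Rpap3 (-0.55, adjusted p = 0.0211) were among the lower ones. Hsp90aa1 and Hsp90ab1 themselves, on the same scale, changed by 0.12 (SE 0.20) and 0.37 (SE 0.18) at 120 min and passed in neither case.

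Of the J domain proteins 9 of 21 were lower and 3 higher at 120 min, near the shares of 40.4% and 19.3% among all genes. After scaling by the median ratio 4 were lower and 8 higher. Dnaja1, a cytosolic partner of HSP70, fell by 1.44 (SE 0.38, adjusted p = 0.0139) and Dnajc10, a reductase of the endoplasmic reticulum, fell by 1.36 (SE 0.11, adjusted p = 9.63e-05). At 30 min 3 were higher and 3 lower, and Dnajb9, an endoplasmic reticulum stress gene, rose by 1.89 (SE 0.19, adjusted p = 0.00254), followed by Dnajb4 (1.10, adjusted p = 0.0456) and Dnaja4 (0.75, adjusted p = 0.0227). Among mitochondrial chaperones and proteases 6 of 11 were lower and 1 higher at 120 min. Trap1, the mitochondrial HSP90, fell by 1.38 (SE 0.09, adjusted p = 4.87e-05), as did Dnaja3, a mitochondrial J domain protein (-1.38, adjusted p = 0.000417), and Grpel2, an exchange factor (-1.03, adjusted p = 0.00124). Grpel2 was the only one of these called at 30 min (-0.48, adjusted p = 0.0427).

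The cytosolic chaperonin TRiC and its partner prefoldin, which fold actin and tubulin, changed little: at 120 min 1 of 14 was lower, Pfdn1 (-0.72, adjusted p = 0.0253), and at 30 min 1, Pfdn4 (-0.62, adjusted p = 0.029). After scaling by the median ratio 4 were higher and none lower at 120 min. Of 4 genes of the HSF family and its regulators 2 were higher at 30 min and 3 at 120 min, none lower. Sirt1, a deacetylase of HSF1, rose by 1.10 (SE 0.09, adjusted p = 0.00114) at 30 min and 1.59 (SE 0.11, adjusted p = 5.07e-05) at 120 min, and Ier5, an immediate early gene that promotes HSF1 activity, rose by 1.01 (SE 0.13, adjusted p = 0.00489) and 0.61 (SE 0.16, adjusted p = 0.0134). Hsf2, the second heat shock factor, was higher at 120 min (0.86, SE 0.22, adjusted p = 0.0123). Of 11 genes of other stress pathways 8 were higher and 1 lower at 30 min and 9 higher at 120 min. They included Gadd45b (2.66 and 2.84), a stress gene of the NF-kB pathway, and Atf3 (2.02 and 2.96), a stress-induced transcription factor. Ddit3, which encodes CHOP, rose by 1.68 at 30 min, and Sqstm1, an autophagy receptor, rose by 1.93 at 120 min. Outside Unc45a, none of the 95 genes was called between genotypes.

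**Figure D4:**
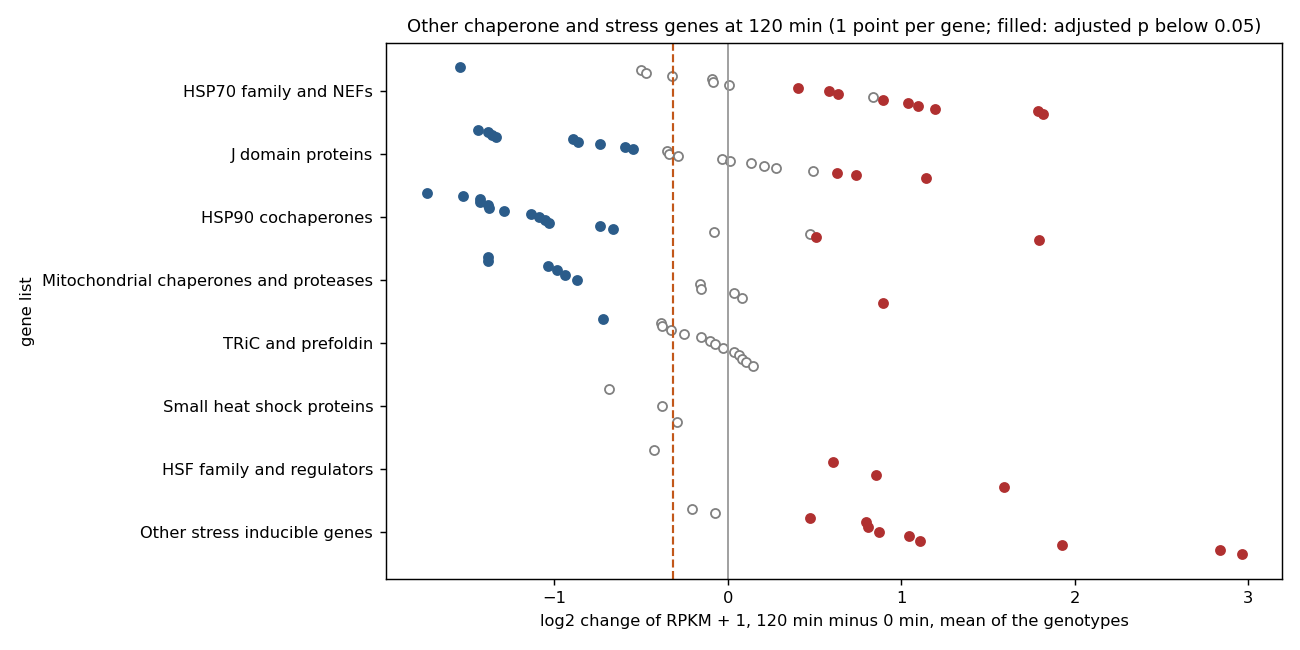
Log2 change of RPKM + 1 at 120 min against 0 min, mean of the genotypes, for the genes of each list of other chaperone and stress genes, 1 point per gene, filled red where called higher and filled blue where called lower. The dashed line is the median of all genes (-0.32); 13 of 17 HSP90 cochaperones and relatives are blue, and 9 of 17 HSP70 relatives and exchange factors are red.

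Over the 10 libraries Hspa1a, Hspa1b, Dnajb1 and Hsph1 varied together, and Hspd1 followed them nearly as closely. Pearson's r of log2(RPKM + 1) was 0.99 between Hspa1a and Hspa1b, which share sequence. With Hspa1a it was 0.95 for Dnajb1, 0.89 for Hsph1 and 0.88 for Hspd1. It was 0.72 for Hspe1, 0.66 for the inducible Hsp90aa1, 0.54 for Hsf1, 0.51 for Hspa8 and -0.08 for Hsp90ab1. All of these points share libraries, genotype and time, so the values are descriptions. Outside the 10 genes, the pattern of Hspa1a was most like that of Gm15408 (0.95) and Ankrd9 (0.95), that of Hspa1b most like Ankrd13b (0.97) and Matk (0.94), and that of Dnajb1 most like Rhob (0.95) and Gm15408 (0.95). Hsph1 was closest to Mtx1 (0.94), Hspe1 to Pigyl (0.96) and Hsf1 to Vps51 (0.97). For Hsp90aa1 and Hsp90ab1 the most similar genes were Gm12346 (0.94) and Gm6368 (0.95), which share sequence with them.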

How the data were processed

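The authors deposited RPKM values per gene and library (reads per length of transcript and depth of library), and the submitters' processing notes name TopHat2 2.0.12, HTSeq 0.6.1 and the builds mm10 and GRCm38. Which gene lengths and counting options were used is not given in the sources used here. Members were matched by gene name, and GENCODE M21 gave positions and lengths for 12567 of 12637 genes. With these lengths 65.8% to 71.1% of values below 200 reads fell within 0.01 of a whole read, against 2% by chance, and the depths followed from that spacing. Limma 3.58.1 in R 4.3.3 was fitted to log2(RPKM + 1) of genes whose mean was 0.5 RPKM or more, with 1 mean per group, all 10 libraries and an intensity trend. Fold changes on this scale understate those of genes with low RPKM. Tests were two-sided, with 4 residual degrees of freedom (6 for genotype over all times), and the code was tested on simulated data. Alternatives were other pseudocounts (0.1 and 5), filters (none and 2 RPKM), scalings, the replicate number as a block, limma-voom on recovered reads, the spread of the compared groups only and each library left out. The members and lists were chosen with earlier results of these data known. All 10 members are named. From each list at most 3 called genes with the largest change per comparison are named. For each member except Hspa8 and Hspd1 the gene or genes most similar by Pearson's r are named. Tables and figures used Python 3.11.15, pandas 2.3.3, numpy 2.4.6 and matplotlib 3.10.9.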

Additional observations from a re-analysis of the deposited data

How the results depend on the processing

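Of 550 log2 changes of the members named in the report under the alternatives, 462 kept direction and side of the threshold, 44 lost and 43 gained a call, and 1 reversed. For changes between times, a fit without a 120 min library gives the other genotype alone. The reversed change was Dnajb1 at 120 against 0 min, with leave-one-out values of -1.50 (WT alone) to 0.076 (mutant alone). The causes were not tested. For 30 against 0 min the count of 10 genes called was 0, and 1 with median ratio scaling, 2 with limma-voom and 0 to 1 with a library left out. For 120 against 0 min it was 4, and 0 to 6 with a library left out. For 120 against 30 min it was 5, and 3 with no filter, 2 with median ratio scaling and 0 to 5 with a library left out. For genotype over all times it was 0, and 1 with a pseudocount of 0.1, with the filter at 2 RPKM and with quantile normalization, 4 with limma-voom and 0 to 3 with a library left out. At 0 min and at 30 min alone limma-voom called 2. Among all genes limma-voom called 3258 at 30 against 0 min and 1517 for genotype over all times.

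The labels do not say that a replicate number marks a shared animal or day. Deviations of same-numbered libraries correlated at 0.16 to 0.23 in 5 of 6 pairs of groups and at 0.037 in the other, WT 30 min with mutant 0 min, so pairing was not taken as shown. With the replicate block 1 gene was called at 30 against 0 min (Hsp90aa1, adjusted p = 0.0489), 3 at 120 against 0 min and 4 at 120 against 30 min (both without Hspa1a, adjusted p = 0.0594 and 0.0847) and 1 for genotype over all times (Hspa1a, adjusted p = 0.0408). The block raised the genes called among all tested at 30 against 0 min from 2317 to 3484, and at 30 min between genotypes from 319 to 549.

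Among all genes, leaving out 1 library gave 779 to 2316 calls at 30 against 0 min, 3339 to 5769 at 120 against 30 min (main 5885), 706 to 1036 for genotype (main 1150), 105 to 300 at 0 min (main 302; limma-voom 635; spread of the compared groups 96) and 86 to 315 at 30 min (main 319; 612; 80). Leaving both WT libraries numbered 1 out gave 51, 472, 3 and 4 calls at 30 against 0 min, for genotype, and for genotype at 0 and 30 min. For the genotype difference in the 120 min response, 13 genes were called with no filter, 4 with a pseudocount of 5 and 1 with 0.1. Median ratio scaling moved the lower calls at 120 against 0 min from 67.7% to 49.99% of all calls, and at 30 against 0 min from 65.7% to 42.8%. Depth limits Hspa1a most in the mutant 120 min library, with 25 recovered reads.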

Other observations

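Hspb1, the small heat shock protein HSP27 and another target of HSF1, was singled out after its values were seen. It was at 2.98 and 0.218 RPKM in WT cells at 0 min, 2.51 and 0.333 RPKM after 30 min and 0.554 RPKM after 120 min. In mutant cells it was listed at 0 in 3 of the 5 libraries and at 0.431 and 0.0947 RPKM in the others. At 33 and 30 recovered reads, the WT libraries numbered 1 held the higher value at both times, as for Hspa1a and Hspa1b. The genotypes overlapped at 0 min, and Hspb1 was not called between them there (log2 change -0.88, SE 0.64, adjusted p = 0.608, limma). Serpinh1, from the list of other stress genes, was higher in mutant cells at a similarly low level and was not among the genes tested. It was listed at 0 in every WT library. In mutant cells it was at 0.893 and 1.28 RPKM at 0 min, 0.963 and 1.42 RPKM after 30 min and 0.223 RPKM after 120 min.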
